A study of Mus musculus with 11 samples.

Results

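The genes described here were the protein-coding genes of mouse chromosomes 1 to 19 whose symbols begin with Cyp2, Cyp3, Cyp4, Ugt1a, Ugt2, Serpina or Serpinb in the GENCODE vM1 annotation of mm9. This rule took 152 of 21418 protein-coding genes, of which 58 were Cyp2, 10 Cyp3, 18 Cyp4, 9 Ugt1a, 9 Ugt2, 22 Serpina and 26 Serpinb. A prefix is not a subfamily, and 10 of these genes (Cyp20a1, Cyp21a1, Cyp24a1, Cyp26a1, Cyp26b1, Cyp26c1, Cyp27a1, Cyp27b1, Cyp39a1 and Cyp46a1) match only by their first letters and digits. They are called prefix-only genes below, and some medians and counts are given for them apart or without them.

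Cytochrome P450 enzymes insert oxygen into lipids, drugs and steroids with electrons from the reductase Por. Ugt enzymes then attach glucuronic acid to such products, which makes them soluble. Serpins are suicide inhibitors that trap a protease by a large change of shape: clade A (Serpina) is largely secreted by liver into plasma, and clade B (Serpinb) is largely retained inside cells, skin and blood cells among them. In the mouse these families have expanded into tandem arrays of near-identical copies, many of which are best known from liver, kidney, gut or skin. No expression was measured in the libraries used here.

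The study followed the deposition of tagged histone variants by ChIP-Seq. H3.3 is the H3 variant that is deposited outside replication and is abundant at active promoters. MacroH2A2 is an H2A variant with a large additional macro domain and is commonly described as repressive. In ES cells, however, the paper reports it over gene-rich blocks and at promoters of expressed genes. In MEFs it reports further blocks in gene-poor regions. There were 11 libraries, 7 from ES cells and 4 from embryonic fibroblasts (MEFs), with 1 library per condition.

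All tagged lines derived from KH2 mouse ES cells of mixed 129 and C57bl/6 background, which carry the M2rtTA transactivator at ROSA26. The HA-tagged histone was placed downstream of Col1a1 under a TetO promoter, so that doxycycline (Dox, 2 µg/ml) switched it on in every cell type with the transactivator. HA-H3.3 ES cells were taken after 3 and 6 h of Dox, HA-Macro ES cells at 3, 6 and 12 h and once with no Dox, and HA-Macro MEFs at passage 2 after 3, 6 and 12 h. All of these were immunoprecipitated with an antibody to HA, and feeder MEFs had been depleted from the ES cells by pre-plating. HA-Macro MEFs came from chimeric mid-gestation embryos and were selected with puromycin. Anti-MacroH2A2 libraries, by their labels from KH2 parental ES cells and wild type MEFs, each combined 2 replicates according to their titles. The study's text describes cells of the tagged lines for this antibody, so only antibody and cell type are used below. For the library without Dox the name of the deposited file speaks of Dox, and its title and treatment label, which do not, were followed. A line is 1 clone, and with 1 library per condition no difference below has a replicate check. The intervals given cover counting error only.

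Each deposited file lists mapped intervals. The midpoint of every distinct interval was counted, and a relative density of 1 is the mean of that library over chromosomes 1 to 19. There were between 6280929 and 19279472 distinct intervals on these chromosomes per library. The HA-Macro ES 3 h library stood apart from the other anti-HA libraries of the HA-Macro line. Its chromosome Y share was 0.112%, where the 3 other HA-Macro ES libraries had 0.0219% to 0.0244%. The HA-H3.3 libraries had 0.0673% and 0.102%, and the anti-MacroH2A2 libraries 0.1% in ES cells and 0.0423% in MEFs. The HA-Macro ES 3 h library also had an all-gene median body density of 1.52, against 1.19 and 1.14 at 6 and 12 h. The paper infers rapid replacement where promoter HA is high at 3 h and falls by 12 h. It reports that fall in a second time course as well. Whether the body density at 3 h has the same origin or is particular to this library was not tested. The counts of the 152 genes that rest on this library are therefore also given without it. Of the cell type markers, Pou5f1, which encodes an ES cell transcription factor, had a body density of 7.20 in HA-H3.3 ES cells at 6 h, and the other ES cell markers Nanog, Esrrb and Zfp42 had 4.88, 3.22 and 2.98. Dppa5a, of which 18.2% of the words are unique, failed the filter described below and had 0.61 over all intervals. Markers of MEFs were not higher in MEFs: the bodies of 3 of 5 (0 of 5 in the other direction) were lower in anti-MacroH2A2 MEFs than in ES cells, Col1a1 from 2.73 to 0.97, where 30.3% of all genes were lower and 1.81% higher. MacroH2A2 levels are not expression, so these genes do not check the cell type labels.

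Copies limit what can be counted, and the 2 kinds of library treat copies differently. In the HA-Macro libraries the intervals were 150 bp long and 8.17% to 9.38% of them had neither end in sequence that occurs once in mm9 (tested as the first and last 32 bases). In the libraries of HA-H3.3 and of anti-MacroH2A2 the intervals were 400 bp long and only 0.476% to 0.571% were of this kind. This matters for these families more than for most: 43 of the 152 genes (28.3%) had under 70% of their 32-base words once in the genome, against 12.4% of all protein-coding genes. Cyp3a41a and Cyp3a41b, at 11.3% and 9.99%, had body densities over all intervals of 0.14 and 0.14 in the anti-MacroH2A2 ES library, and of 1.00 and 1.11 in HA-Macro ES cells at 12 h. Over the 42 tested genes under 70%, the median anti-MacroH2A2 ES density was 0.51 from all intervals and 0.75 from uniquely placed ones, while the 107 others had 1.07 and 1.03. The levels of single gene bodies and of clusters below are therefore uniquely placed relative densities, which use only intervals with both ends unique and only the start positions where such an interval is possible. Promoter levels of single genes are over all distinct intervals, as are the counts and the median log2 ratios, unless stated otherwise.

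**Figure D1:**
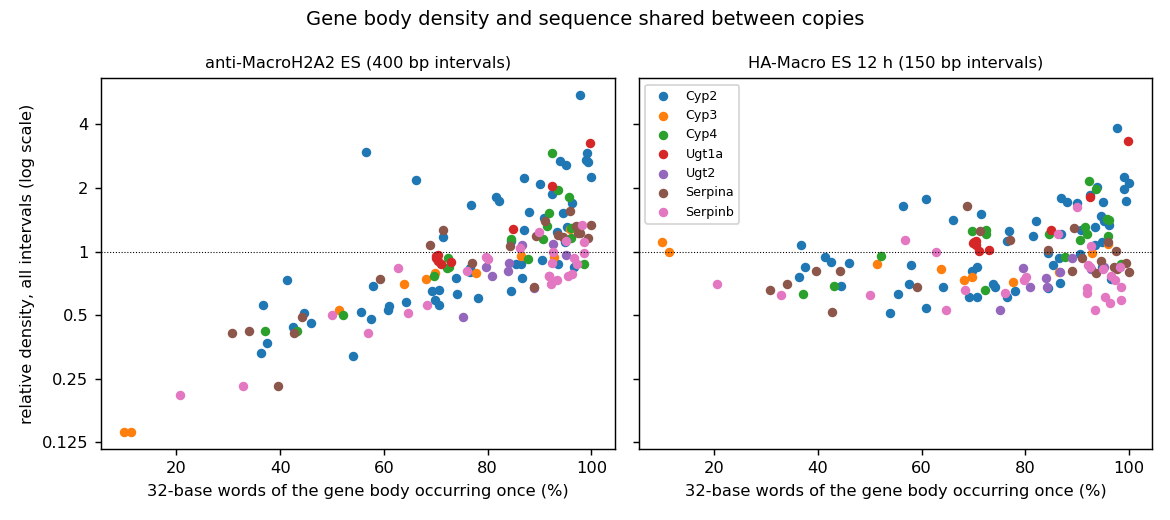
Relative density of each gene body over all intervals (vertical axis, log scale) against the percentage of its 32-base words that occur once in mm9 (horizontal axis), for the families by colour, with a dotted line at the library mean of 1. The genes at the left are lower in the library of 400 bp intervals (left panel) than in that of 150 bp intervals (right panel), and the Cyp3 points furthest left, Cyp3a41a and Cyp3a41b, lie at 0.14 in the former and at 1.00 and 1.11 in the latter.

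The sequences in front of 6 of the genes show the range of promoter types. Each run is the 300 bases before the annotated start, 5′ to 3′ in the direction of the gene and with none of it in an annotated exon, and capitals mark every CG dinucleotide. Cyp20a1, an orphan P450, and Cyp26a1, which degrades retinoic acid, have many CGs and HA-H3.3 at their starts. Cyp2e1, the ethanol-metabolising P450 of liver, and Serpina3i have none, and Serpina3i nonetheless is among the 10 genes with the most promoter HA-H3.3. Cyp3a41a and Cyp3a41b, a pair of liver P450 genes, are shown because their fronts differ at 1 of 300 bases (99.7% identity).
Cyp20a1, mm9 chr1:60399867-60400166, plus strand: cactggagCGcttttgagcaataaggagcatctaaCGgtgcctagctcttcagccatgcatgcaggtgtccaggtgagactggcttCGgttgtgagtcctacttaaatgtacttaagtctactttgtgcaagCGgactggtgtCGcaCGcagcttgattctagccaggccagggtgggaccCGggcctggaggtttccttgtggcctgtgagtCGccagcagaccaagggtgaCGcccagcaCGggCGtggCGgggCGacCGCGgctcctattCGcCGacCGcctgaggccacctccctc
Cyp26a1, mm9 chr19:37771998-37772297, plus strand: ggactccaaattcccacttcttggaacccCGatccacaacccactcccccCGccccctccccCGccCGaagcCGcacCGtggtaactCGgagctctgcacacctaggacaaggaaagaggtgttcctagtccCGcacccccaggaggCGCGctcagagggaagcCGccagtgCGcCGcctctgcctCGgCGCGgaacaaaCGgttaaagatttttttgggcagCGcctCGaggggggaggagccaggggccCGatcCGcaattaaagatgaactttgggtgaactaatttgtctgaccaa
Cyp2e1, mm9 chr7:147949338-147949637, plus strand: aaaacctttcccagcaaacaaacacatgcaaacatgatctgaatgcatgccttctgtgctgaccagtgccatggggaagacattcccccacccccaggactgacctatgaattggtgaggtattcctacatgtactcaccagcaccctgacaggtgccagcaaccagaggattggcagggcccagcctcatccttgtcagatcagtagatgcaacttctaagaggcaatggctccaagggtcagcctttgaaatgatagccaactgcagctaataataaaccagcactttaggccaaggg
Serpina3i, mm9 chr12:105501032-105501331, plus strand: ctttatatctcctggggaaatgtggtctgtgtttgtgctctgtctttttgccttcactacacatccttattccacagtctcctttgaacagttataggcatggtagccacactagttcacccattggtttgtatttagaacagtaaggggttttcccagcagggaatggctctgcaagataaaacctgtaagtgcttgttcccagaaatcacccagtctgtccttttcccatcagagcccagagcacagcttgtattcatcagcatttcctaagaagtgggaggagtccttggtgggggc
Cyp3a41a, mm9 chr5:146531713-146532012, minus strand: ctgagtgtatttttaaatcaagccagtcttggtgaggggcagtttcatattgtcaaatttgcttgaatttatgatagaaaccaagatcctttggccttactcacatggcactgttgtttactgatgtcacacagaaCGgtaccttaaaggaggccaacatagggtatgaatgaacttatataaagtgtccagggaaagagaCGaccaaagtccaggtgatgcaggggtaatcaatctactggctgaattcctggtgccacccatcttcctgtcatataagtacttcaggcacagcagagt
Cyp3a41b, mm9 chr5:146345600-146345899, minus strand: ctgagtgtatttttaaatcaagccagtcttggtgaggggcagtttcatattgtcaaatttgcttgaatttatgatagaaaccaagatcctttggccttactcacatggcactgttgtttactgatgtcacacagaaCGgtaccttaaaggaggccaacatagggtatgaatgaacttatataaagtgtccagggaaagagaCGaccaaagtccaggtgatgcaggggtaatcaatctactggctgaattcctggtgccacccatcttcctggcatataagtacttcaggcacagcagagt
The 18 CGs of Cyp20a1 and 21 of Cyp26a1 compare with a median of 2 over the 152 genes and of 10 over all protein-coding genes.

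Promoters, taken as 600 bp either side of the start, were poor in HA-H3.3. The median relative density in HA-H3.3 ES cells at 6 h was 0.77 over the 152 genes and 3.64 over all protein-coding genes. Against the HA-Macro ES library without Dox, which holds no induced tag by its label, 40 of 152 promoters (26.3%) were at least 1.5-fold higher in HA-H3.3 at 6 h, where 67.2% of all promoters were. In the other direction 57 (37.5%) were at least 1.5-fold lower, against 16.2% of all promoters. These libraries share the antibody but differ in tagged line and in interval length (400 bp and 150 bp), and so in the treatment of copies. Without the prefix-only genes 33 of 142 (23.2%) were higher. For all 152, uniquely placed intervals gave 47 higher and 45 lower, with 64.9% and 12.9% of all promoters. With the scaling that puts the median gene body at a ratio of 1 the counts were 30 higher and 85 lower (57.3% and 22.8% of all promoters). All genes had a median log2 ratio of 1.37 in this comparison, and the family medians were -0.13 in Cyp2, -0.84 in Cyp3, 0.37 in Cyp4, -0.01 in Ugt1a, -0.55 in Ugt2, -0.45 in Serpina and -0.09 in Serpinb. The prefix-only genes had 1.35. Uniquely placed intervals gave 1.22 for all genes and 1.16 for the prefix-only genes. Promoters with few or no unique positions were kept in this setting, and the 1 added midpoint draws their ratios toward equality. How far this moved the family medians was not tested. The family medians were then -0.13 in Cyp2, 0.10 in Cyp3, 0.53 in Cyp4, -0.06 in Ugt1a, -0.74 in Ugt2, -0.06 in Serpina and 0.04 in Serpinb, so the signs of Cyp3 and Serpinb and the order of the families depended on the treatment of copies, while each family stayed below all genes.

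The CpG content of the promoter went with this level. The median ratio of observed to expected CpG was 0.15 over the 152 genes and 0.54 over all genes. At a ratio of 0.6 or more lay 9 of the 152 promoters, of which 5 belong to prefix-only genes. Of these 9, 8 were called higher, and of all such promoters 94.5% were. Below it, 32 of 143 were, against 45.4% of all. Where genes were compared at like CpG content the levels lay closer together in most bins. For promoters with a ratio of 0.1 to 0.2, which held 71 of the 152, the median was 0.385 midpoints per 1000000 distinct intervals (ppm) over these and the same over all genes. From 0.3 to 0.4 it was 1.2 over 8 of them and 0.961 over all, and from 0.6 to 0.7 it was 1.25 over 3 of them and 2.79 over all. Pearson's r between the CpG ratio and log2 HA-H3.3 was 0.57 over the 152 promoters and 0.72 over all promoters, given as a description across genes that share 1 library, their neighbours and their base composition.

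**Figure D2:**
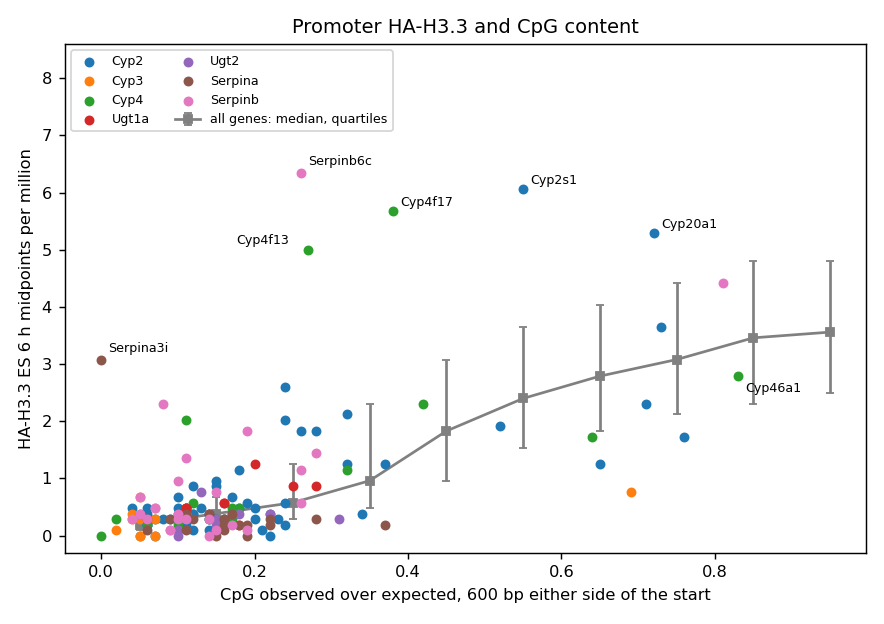
HA-H3.3 ES 6 h level of each promoter, in ppm (vertical axis), against the ratio of observed to expected CpG (horizontal axis), with 1 coloured point per gene and, in grey, the median and quartiles of all protein-coding promoters in bins of CpG ratio. Most of the 152 genes lie at the left, where the grey medians are also low, and Serpinb6c, Cyp4f13 and Serpina3i lie far above the grey medians of their bins.

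The 10 promoters with the most HA-H3.3 at 6 h were those of Serpinb6c, Cyp2s1, Cyp4f17, Cyp20a1, Cyp4f13, Serpinb6a, Cyp2r1, Serpina3i, Cyp46a1 and Cyp27b1, with 6.35 down to 2.60 ppm. Serpinb6c, a clade B serpin, had 2.55 at 3 h and 6.35 at 6 h of HA-H3.3, the latter from 66 midpoints. Its 4 HA-Macro ES values lay between 0.351 and 1.12 ppm. Anti-MacroH2A2 ES had 1.45, so both HA-H3.3 libraries stood above the other ES libraries. Cyp20a1 had 2.07 and 5.29 in HA-H3.3, 1.21 in anti-MacroH2A2 ES and 0.466 to 0.811 in HA-Macro ES libraries, and at most 0.562 in any MEF library. Cyp4f13, of the family that oxidises fatty acid and leukotriene tails, had 3.03 and 5.00 in HA-H3.3 but 0.121 and 0.211 in the anti-MacroH2A2 ES and MEF libraries. Cyp2r1, the vitamin D 25-hydroxylase, had 2.55 and 3.65 in HA-H3.3 and 1.81 in anti-MacroH2A2 ES.

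Several of these starts have close neighbours or unusual sequence. Serpinb6a (4.42 at 6 h) starts 431 bp from the start of Ripk1, a cell death kinase, and Cyp2s1 (6.06) starts 259 bp from the lincRNA Gm17445, so that a midpoint there cannot be assigned to 1 of the 2 starts. Serpina3i, whose front without any CG is printed above, had 1.43 and 3.08 ppm in HA-H3.3 and 0.121 in anti-MacroH2A2 ES, with 84.3% of its promoter words unique. Cyp46a1, which makes 24-hydroxycholesterol in neurons, had 1.75 and 2.79. Cyp27b1, which activates vitamin D in kidney, had 1.11 and 2.60.

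At the low end, 10 promoters had no HA-H3.3 midpoint at 6 h: Cyp2c68, Cyp2b13, Cyp2b9, Cyp3a41a, Cyp3a41b, Cyp4a12a, Serpina10, Serpina3b, Serpinb9g and Ugt2b38. A count of 0 allows up to 3 midpoints, or 0.288 ppm. For Cyp3a41a and Cyp3a41b, whose fronts are printed above, only 9.91% and 11.2% of the promoter words are unique, and the HA-Macro ES library without Dox had 0.351 and 0.615 there. Cyp2e1 had 0.000 and 0.385 in HA-H3.3 against 0.791 without Dox, and Cyp3a11, the main drug-metabolising Cyp3a enzyme of mouse liver, 0.318 and 0.288 against 0.527.

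Gene bodies were tested where the library without Dox had at least 20 midpoints, which 149 of the 152 passed. The exceptions were Cyp2d37-ps, Cyp2a22 and Serpina5 with 3, 16 and 18. The median HA-H3.3 density over bodies was 0.88 at 3 h and 0.63 at 6 h, where all genes had 1.28 and 1.44. From 3 to 6 h, 51 of 149 bodies (34.2%) were at least 1.5-fold lower in relative density, against 7.47% of all genes, and 3 (2.01%) were higher, against 15.9%. The 51 were 19 Cyp2, 5 Cyp3, 2 Cyp4, 1 Ugt1a, 2 Ugt2, 12 of 21 Serpina and 10 Serpinb genes. Uniquely placed intervals gave 35 of 127 lower and 4 higher, with 6.61% and 15.3% of all genes. With the median body at a ratio of 1, 67 were lower and 0 higher (12.8% and 8.23% of all). The Serpina median was -0.65 on the log2 scale and that of all genes 0.15. A relative density is a share of its library, so a lower share at 6 h does not mean that less H3.3 was present there.

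The bodies with the highest HA-H3.3 at 6 h included Cyp27b1 at 4.20, Cyp2s1 at 4.01, Cyp26a1 at 1.99 and Cyp26b1 at 1.93. Cyp26b1, which like Cyp26a1 clears retinoic acid in the embryo, was at 1.55 at 3 h. Their values at 6 h exceeded the all-gene median of 1.44, while Cyp2e1 (0.63 and 0.44), Cyp3a13 (0.75 and 0.62), Serpina6, which encodes the corticosteroid carrier of plasma (0.52 and 0.46), and Serpinb2, an inhibitor of plasminogen activators (0.74 and 0.50), lay below the library mean at both times.

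The levels of MacroH2A2 differed by family and by cell type. In the anti-MacroH2A2 libraries the median body density went from 0.94 in ES cells to 0.81 in MEFs for Cyp2, 0.91 to 0.83 for Cyp3, 1.05 to 0.93 for Cyp4, 1.16 to 1.10 for Ugt1a and 0.85 to 0.75 for Ugt2. For Serpina it went from 1.06 to 1.16 and for Serpinb from 0.81 to 0.87. All genes went from 1.11 to 0.89. In HA-Macro at 12 h the split was wider: Cyp3 went from 0.82 in ES cells to 0.46 in MEFs, Ugt2 from 0.73 to 0.45, Cyp4 from 1.10 to 0.59 and Cyp2 from 0.94 to 0.63. Serpina went from 0.92 to 1.23 and Serpinb from 0.66 to 0.74, where all genes went from 1.14 to 0.85. The prefix-only genes went from 1.73 to 2.05, but from 1.93 to 1.46 in anti-MacroH2A2.

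**Figure D3:**
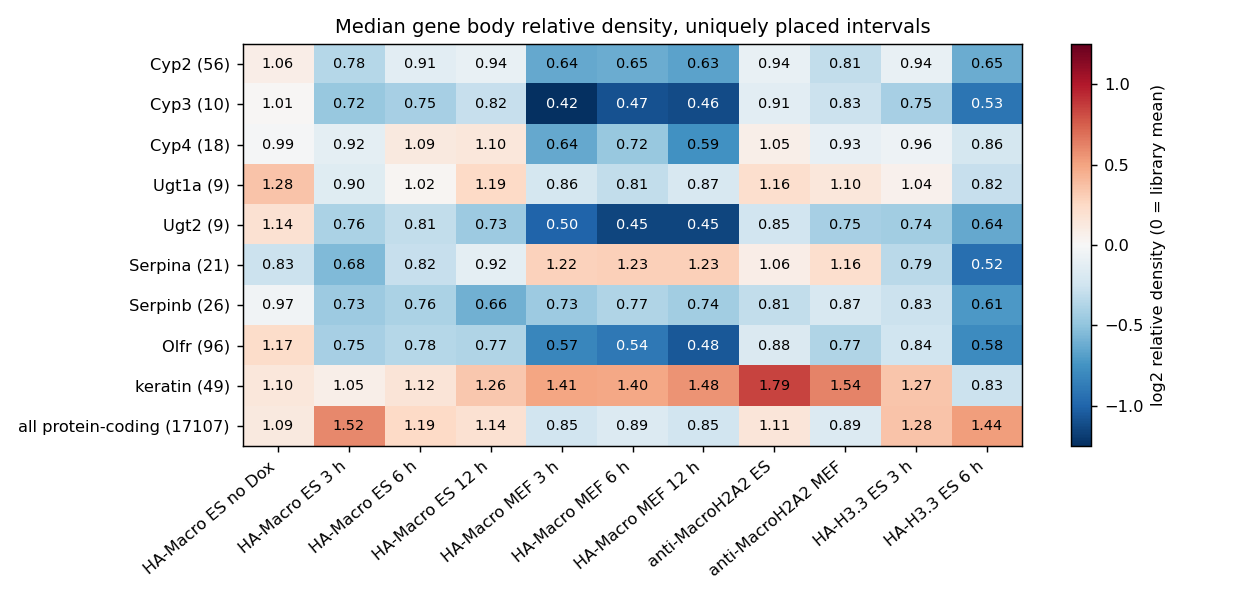
Median uniquely placed relative density of gene bodies, as log2 with 0 at the library mean (colour scale), for each family and reference group (rows) in the 11 libraries (columns). Row labels give the genes that passed the body filter. The medians rest on 55 of 56 Cyp2, 8 of 10 Cyp3 and 25 of 26 Serpinb genes and on all such genes of the other families. The HA-H3.3 columns are lower in each Cyp, Ugt and Serpin family than in all genes, and in the HA-Macro MEF columns Serpina is above the mean at 1.22 to 1.23 while Cyp3 and Ugt2 are between 0.42 and 0.50.

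Since the all-gene median log2 ratio of MEF over ES was -0.38 for anti-MacroH2A2 and -0.44 for HA-Macro at 12 h, a family at 0 stood above most genes. In anti-MacroH2A2, 4 of 149 bodies (2.68%) were at least 1.5-fold higher in MEFs, against 1.81% of all genes: Serpina9, Serpina3k, Serpinb1c and Serpinb9f. There were 16 (10.7%) lower, against 30.3% of all genes, namely 12 Cyp2, 3 Cyp4 and 1 Serpinb genes. Setting the median body of all genes at a ratio of 1 gave 32 higher and 0 lower (8.88% and 9.01% of all genes), so the calls in both directions depend on the scaling, which moves every gene by the same amount. Uniquely placed intervals gave 8 higher and 11 lower of 127, with 1.36% and 30.8% of all genes. Over all intervals the median log2 ratio was -0.09 over the 149, and the family medians ran from -0.16 in Cyp2 and Cyp4 to 0.22 in Serpinb. Uniquely placed intervals gave -0.27 in Cyp2, -0.20 in Cyp4 and 0.19 in Serpinb, with -0.39 for all genes. Pooled over the bodies of each family, Cyp2 had -0.21, Cyp4 -0.26 and Serpinb 0.08 (interval -0.01 to 0.17).

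In HA-Macro at 12 h, 16 of 149 (10.7%) were at least 1.5-fold higher in MEFs, against 4.1% of all genes. These were 9 Serpina and 6 Serpinb genes and Cyp26b1. There were 44 (29.5%) lower, against 34% of all genes, 10 of 18 Cyp4 genes and no Serpina gene among them. With the median body at a ratio of 1 there were 37 higher and 10 lower (15.8% and 4.43% of all genes), and uniquely placed intervals gave 18 and 47 of 127 (4.27% and 40.7%). Over all intervals the family medians were -0.47 in Cyp2, -0.54 in Cyp3, -0.67 in Cyp4, -0.31 in Ugt1a, -0.51 in Ugt2, 0.56 in Serpina and 0.16 in Serpinb. Uniquely placed intervals gave -0.55, -0.66, -0.87, -0.45, -0.61, 0.61 and 0.22 in the same order, with -0.49 for all genes. Pooled over the bodies of each family, the ratios were -0.33, -0.30, -0.48, -0.20, -0.55, 0.56 and 0.03 in the same order. The pooled Serpinb interval ran from -0.03 to 0.10. The 9 Ugt1a genes share exons at their 3′ end and their bodies overlap, so they count as little more than 1 measurement.

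The order of the libraries, rather than 1 pair, gave a similar split. In 26 of 149 bodies (17.4%) all 3 HA-Macro MEF libraries were above all 3 ES libraries with Dox, against 12.3% of all genes, and 12 of the 26 were Serpina and 8 Serpinb. In 68 (45.6%) all 3 MEF libraries were below, against 60.7% of all genes, and these held 9 of 10 Cyp3, 8 of 9 Ugt2 and 0 of 21 Serpina genes. Without the HA-Macro ES 3 h library the counts were 27 and 84 (13.4% and 67.1% of all genes), of which 12 and 2 were Serpina. Time points of 1 line are not replicates of a cell type.

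Within Serpina, the genes with the highest MEF levels lay in the second part of the array. Serpina9, a serpin of germinal centre B cells, had 1.04 in anti-MacroH2A2 ES and 1.81 in MEFs, a log2 ratio of 0.79 (95% counting interval 0.41 to 1.19). In HA-Macro it had 0.83 without Dox and 0.76, 0.82 and 1.04 at 3, 6 and 12 h in ES cells, and 2.03, 2.17 and 2.12 in MEFs. The MEF values did not overlap those of ES cells. Serpina3n, an inhibitor of neutrophil and granzyme proteases, had 0.73, 0.96 and 1.14 in HA-Macro ES cells and 2.35, 2.79 and 2.26 in MEFs, a log2 ratio at 12 h of 0.99 (0.50 to 1.49). Anti-MacroH2A2 did not separate the cell types at this gene, with 1.15 and 1.17 (log2 ratio 0.03, interval -0.67 to 0.75).

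Serpina6 had 0.66, 0.72 and 0.79 in HA-Macro ES cells and 0.85, 0.96 and 1.21 in MEFs, and 1.15 and 1.19 in the anti-MacroH2A2 pair. Serpina3k had 0.61 in anti-MacroH2A2 ES and 1.06 in MEFs with an interval of the log2 ratio from -0.10 to 1.79, and its HA-Macro ranges overlapped, 0.49 to 0.80 in ES cells and 0.55 to 1.11 in MEFs. Serpina1a, a copy of alpha-1-antitrypsin, the plasma inhibitor of neutrophil elastase, had 34.0% unique words. Its HA-Macro levels were 0.68, 0.97 and 0.92 in ES cells and 0.60, 0.93 and 0.41 in MEFs, with no separation. Serpina10, which inhibits coagulation factor X, had 0.60 to 0.73 in ES cells and 0.73 to 0.79 in MEFs.

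The whole Serpina cluster, chr12:104854885-105652539 with all 22 genes in 797.7 kb, had HA-Macro densities of 0.67, 0.76 and 0.84 in ES cells at 3, 6 and 12 h and 1.41, 1.41 and 1.43 in MEFs. The log2 ratio at 12 h from all intervals was 0.56 (0.51 to 0.62), where the 200 kb to the left had 0.03 and the 200 kb to the right 0.25. Anti-MacroH2A2 went from 0.97 to 1.18. The right flank was already at 1.63 in HA-Macro ES cells at 12 h and at 1.93 in MEFs. Divided after the values were seen, the 14 genes from Serpina11 to Serpina3n had a median of 0.93 in HA-Macro ES cells and 1.55 in MEFs at 12 h, and the log2 ratio from all intervals was above 0 in 13 of 13 tested and past 1.5-fold in 8. In anti-MacroH2A2 it was above 0 in 9 of these and past 1.5-fold in 2. Of all genes, 4.1% were at least 1.5-fold higher in HA-Macro and 1.81% in anti-MacroH2A2. Their median log2 ratios were -0.44 and -0.38. The division follows the values and the genes are neighbours in 1 array. The counts therefore describe the division and are not separate measurements. The 8 genes from Serpina10 to Serpina1e had medians of 0.82 and 0.75, with 4 of 8 above 0 and 1 past 1.5-fold in HA-Macro, and 2 and 0 in anti-MacroH2A2. This part was not uniform. Each 20 kb bin starting 0 to 80 kb into the cluster was higher in MEFs in HA-Macro at 12 h, at 0.76 to 1.52 against 0.61 to 0.74. Anti-MacroH2A2 was lower in MEFs in the first of these bins and higher in the others. Bins starting 100 to 300 kb in, within the Serpina1 copies, had too few unique positions to be measured.

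**Figure D4:**
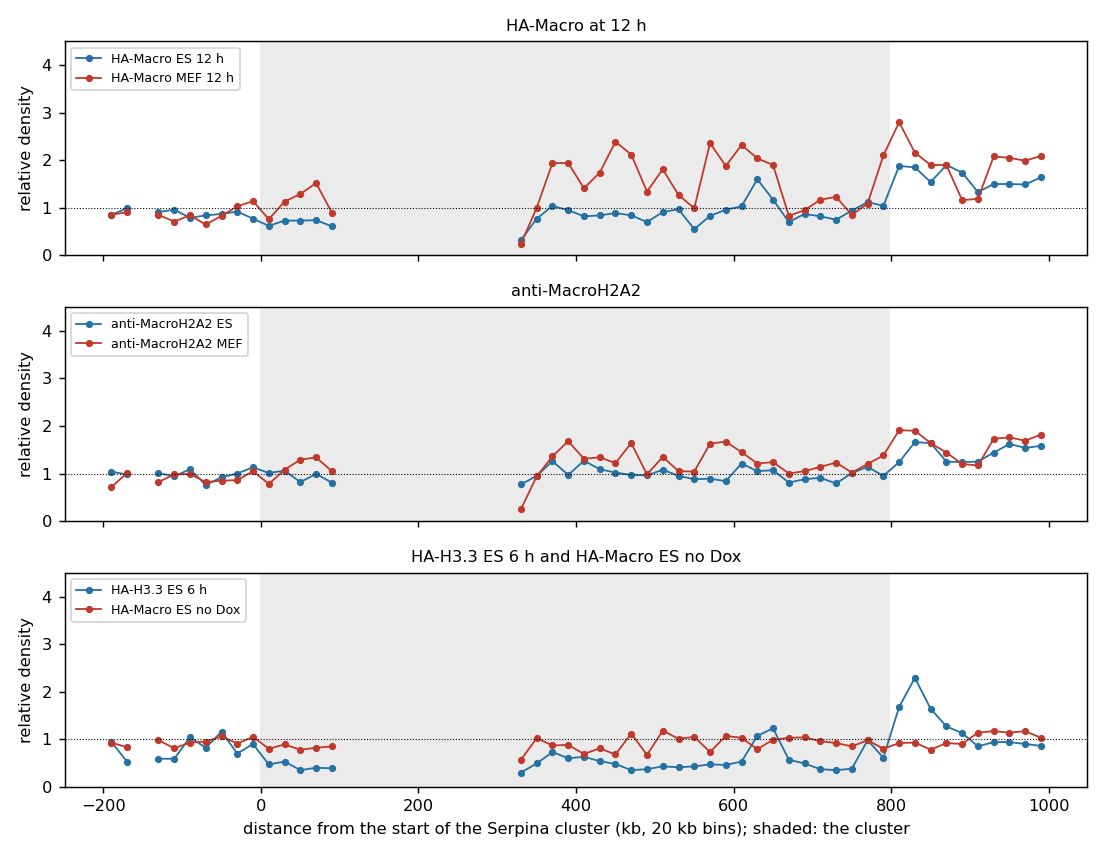
Uniquely placed relative density in 20 kb bins (vertical axes, dotted line at 1) against distance from the start of the Serpina cluster in kb (horizontal axis, cluster shaded), for HA-Macro at 12 h in ES cells and MEFs (top), anti-MacroH2A2 in both (middle), and HA-H3.3 ES 6 h with HA-Macro ES no Dox (bottom). The HA-Macro MEF line lies above the ES line in most bins of the cluster, and gaps in the lines, the widest within the Serpina1 copies, mark bins with too few unique positions.

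Serpinb showed both directions. Serpinb1c, a copy of the elastase inhibitor of neutrophils, had 0.47 in anti-MacroH2A2 ES and 1.30 in MEFs, a log2 ratio of 1.48 (0.63 to 2.42). In HA-Macro it had 0.58, 0.84 and 0.96 in ES cells and 1.89, 2.12 and 2.00 in MEFs, which did not overlap. Serpinb5 (maspin), of epithelia, went from 0.81 to 1.17 in anti-MacroH2A2, and had 0.76 to 0.85 in HA-Macro ES cells against 1.17 to 1.26 in MEFs. Serpinb2 went from 0.72 to 1.00, with 0.52 to 0.65 against 0.76 to 0.90. In the other direction, Serpinb6a had 1.06 and 0.69 in anti-MacroH2A2, and 1.20 to 1.29 in HA-Macro ES cells against 0.54 to 0.77 in MEFs. Serpinb6e had 1.18 and 0.77, with a log2 ratio of -0.62 (-1.19 to -0.05). Serpinb9f, counted higher over all intervals, rests on 6 and 18 uniquely placed midpoints, and its interval ran from -0.59 to 2.43.

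Several P450 genes of xenobiotic and fatty acid metabolism were lower in MEFs in HA-Macro. Cyp2e1 had 0.69, 0.75 and 1.11 in ES cells and 0.61, 0.56 and 0.46 in MEFs, a log2 ratio at 12 h of -1.28 (-1.86 to -0.71). In anti-MacroH2A2 it had 1.01 and 0.66, with an interval from -1.25 to 0.02. Cyp3a13, an intestinal Cyp3a enzyme, had 0.93, 1.04 and 1.08 in HA-Macro ES cells and 0.63, 0.61 and 0.47 in MEFs (-1.20, interval -1.56 to -0.85), and 1.12 and 0.90 in anti-MacroH2A2. Cyp2b10, the phenobarbital-inducible P450, had 0.81, 1.25 and 1.23 against 0.68, 0.61 and 0.65, and Cyp4f13 had 1.49, 1.17 and 1.13 against 0.53, 0.78 and 0.67. All 4 had MEF values below each ES value, as 60.7% of all genes did. For Cyp4a14, a PPARα target that hydroxylates fatty acids, ES values of 0.62, 0.73 and 0.87 overlapped MEF values of 0.65, 0.55 and 0.49, and the overlap rests on the ES 3 h value.

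Cyp2d40 and Cyp2d10, on chromosome 15, had the lowest anti-MacroH2A2 log2 ratios of MEF over ES over all intervals, at -0.90 and -0.87. The prefix-only gene Cyp21a1 came next in this ranking, at -0.87. The Cyp2d cluster as a whole had -0.43. In uniquely placed intervals Cyp2d40 went from 1.65 in ES cells to 0.75 in MEFs (-1.14, interval -2.26 to -0.05) and Cyp2d10 from 2.88 to 1.53 (-0.92, interval -1.87 to 0.02). Cyp2d22, often taken as the mouse counterpart of the human drug-metabolising enzyme of this subfamily, went from 2.31 to 1.44 (-0.68, interval -1.13 to -0.23), while its HA-Macro ranges overlapped, 1.07 to 1.59 in ES cells and 1.43 to 1.67 in MEFs. The 2 antibodies thus gave different pictures for this gene.

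The retinoic acid genes Cyp26a1 and Cyp26b1 were high in both cell types. Cyp26b1 had 2.29 in anti-MacroH2A2 ES and 2.33 in MEFs (0.02, interval -0.23 to 0.28), and in HA-Macro 1.26 without Dox, 1.50, 2.00 and 1.72 in ES cells and 2.80, 2.85 and 2.87 in MEFs (0.74 at 12 h, interval 0.53 to 0.96). Cyp26a1 had 2.38 and 2.41 in anti-MacroH2A2, and 1.79, 2.10 and 2.23 against 3.33, 2.54 and 3.21 in HA-Macro. Cyp24a1, which inactivates vitamin D, had 0.88 to 1.47 in HA-Macro ES cells and 1.88 to 2.18 in MEFs. In these genes the HA-Macro MEF values did not overlap those of ES cells. Cyp46a1 was lower in MEFs in anti-MacroH2A2, at 1.66 against 2.61 (-0.66, interval -0.91 to -0.40). In HA-Macro it had 1.42 to 1.91 in ES cells and 1.90 to 2.22 in MEFs, ranges that met but with the higher values in MEFs.

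No Ugt gene passed 1.5-fold over all intervals in anti-MacroH2A2 between the cell types. Ugt2b36 was the lowest, with 0.86 in ES cells and 0.54 in MEFs (-0.68, interval -1.17 to -0.18). Ugt1a1, the enzyme that conjugates bilirubin, had 2.83 and 3.21, but 3.08 in the HA-Macro ES library without Dox, and its HA-Macro ranges overlapped, 2.31 to 3.26 in ES cells and 1.95 to 2.38 in MEFs. Its level without induced tag was thus as high as with it, and the 9 Ugt1a genes, Cyp2w1 and Cyp3a41b lie in the 1% of 100 kb tiles that were highest in that library. The 200 kb beyond the cluster, on the side of Ugt1a1, had 1.80 there. Ugt2b34 had 0.63 and 0.75 in anti-MacroH2A2 and, in HA-Macro, 0.77, 0.94 and 0.91 in ES cells against 0.57, 0.49 and 0.46 in MEFs (-0.99 at 12 h, interval -1.52 to -0.49). Ugt2a3 had 0.97 and 1.06, and 0.74 to 0.81 against 0.54 to 0.61.

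There were 135 of the 152 genes in 15 clusters, runs of genes of 1 family with under 200 kb between neighbours. In HA-H3.3 at 6 h the median cluster density was 0.67 and that of the 200 kb flanks 1.25. Both flanks were higher than the cluster in 8 of 15, and both were lower in 2. The Cyp2d cluster, chr15:82200958-82624675, had 0.62 between flanks of 3.08 and 2.04, and the Cyp2c cluster, chr19:39081509-40261823, 0.58 between 1.49 and 1.33. In the HA-Macro ES library without Dox the medians were 1.01 and 1.04, with clusters from 0.88 to 1.17, and 6 of 15 were below both flanks and 1 above. In HA-Macro MEFs at 12 h the medians were 0.72 and 0.88, with 8 clusters below both flanks and 2 above. Anti-MacroH2A2 ES had 0.98 and 0.98, with 8 below and 2 above. Over all intervals the same library had 0.68 and 1.01, with 11 below and 2 above.

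The clusters were not alike. Cyp26c1 and Cyp26a1, 15.9 kb on chromosome 19, stood above both flanks with 2.77 in HA-H3.3 at 6 h, 2.38 in anti-MacroH2A2 ES and 2.96 in HA-Macro MEFs at 12 h. The Cyp2j cluster, chr4:95694225-96330845, had 0.75 in HA-Macro ES cells at 12 h and 0.55 in MEFs, while its flanks had 0.70 and 0.61 in ES cells and 1.12 and 1.19 in MEFs. Its log2 ratio of MEF over ES from all intervals was -0.36 (-0.43 to -0.29) between flanks of 0.66 and 0.88. The all-gene median of -0.44 is over gene bodies and is not a like measure for whole regions. Against an unchanged share of the library, the cluster was lower and both flanks were higher in MEFs. In anti-MacroH2A2 the cluster had 0.07 (-0.03 to 0.16) and its flanks 0.37 and 0.61, so the opposite signs were not seen with that antibody. In HA-Macro at 12 h the Serpinb cluster on chromosome 1 had a density of 0.63 in ES cells and 0.74 in MEFs. That on chromosome 13 had 0.87 and 0.86. In anti-MacroH2A2 they went from 0.74 to 0.87 and from 0.90 to 0.94.

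**Figure D5:**
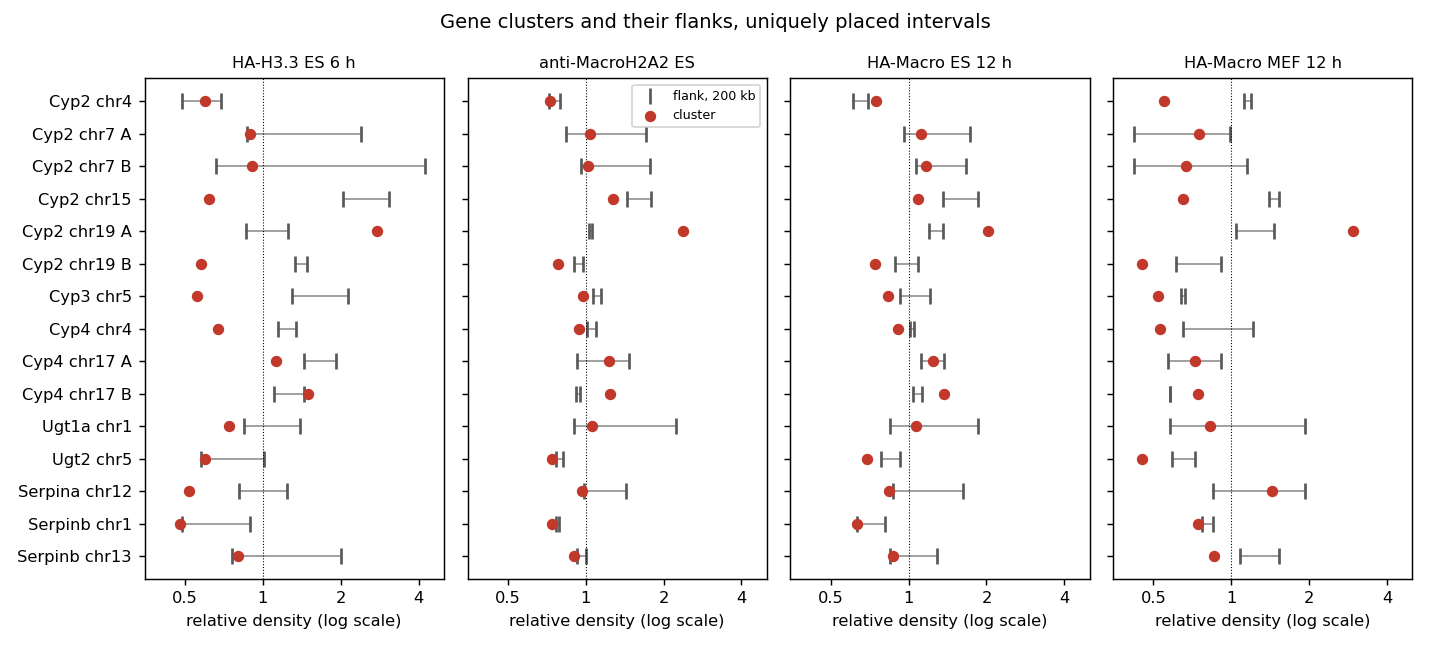
Uniquely placed relative density (horizontal axes, log scale, dotted line at 1) of each of the 15 clusters (red point) and of the 200 kb on either side (grey marks) in the libraries named above each panel. In HA-H3.3 at 6 h the Cyp2 cluster on chromosome 15 lies at 0.62, left of its flanks at 2.04 and 3.08, and the Cyp26 pair (Cyp2 chr19 A) lies at 2.77, right of its own.

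Over the HA-Macro time courses, 13 of 149 bodies (8.72%) were at least 1.5-fold higher at 12 h than at 3 h in ES cells, against 6.18% of all genes, and 2 (1.34%), Cyp20a1 and Cyp2t4, were lower, against 38%. Since the 3 h library stood apart, 6 h was used in its place: 4 were then higher and 1 lower, against 0.672% and 2.05% of all genes. The median log2 ratio of the 149 was 0.17 from 3 to 12 h and 0.03 from 6 to 12 h, and that of all genes -0.27 and -0.08. With the median body at a ratio of 1, 42 were higher and 0 lower from 3 to 12 h (18.5% and 24.5% of all genes), and uniquely placed intervals gave 11 and 4 of 127 (6.6% and 39.2%). Cyp20a1, whose front is printed above, had 0.94 without Dox and 1.53, 1.00 and 0.92 at 3, 6 and 12 h, and the 3 h value was near the all-gene median of 1.52 in that library. In MEFs 8 (5.37%) were higher and 4 (2.68%) lower at 12 h than at 3 h, against 1.71% and 2.55% of all genes, and uniquely placed intervals gave 4 and 2 of 127 (1.86% and 2.52%).

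The anti-MacroH2A2 libraries were also set against the HA-Macro ES library without Dox, with which they share neither antibody nor interval length, and these comparisons use the same anti-MacroH2A2 libraries as the ratio of MEF over ES. In ES cells 35 of 149 (23.5%) were at least 1.5-fold lower, against 8.55% of all genes, but uniquely placed intervals gave 16 of 127 (6.39% of all genes), and of the 107 genes with at least 70% unique words 5 (4.67%) were lower, against 3.61% of all genes with at least 70%. In MEFs 16 (10.7%) were higher, against 10.6% of all genes, 7 of them Serpina and 6 Cyp2. This count was near that of all genes.

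Of 27 pathway partners listed for these families, such as Por, the nuclear receptors Nr1i2 and Nr1i3 that induce P450 genes, and proteases that serpins inhibit, 26 were in the annotation. Of their promoters, 18 of 26 were at least 1.5-fold higher in HA-H3.3 at 6 h than without Dox and 3 lower, where 67.2% and 16.2% of all promoters were. Their median log2 ratio was 1.42 and their median CpG ratio 0.29. Of 23 tested bodies, 0 were higher and 6 lower in MEFs by anti-MacroH2A2, where 1.81% and 30.3% of all genes were, and 0 and 7 by HA-Macro at 12 h, against 4.1% and 34%, with medians of -0.39 and -0.38 near those of all genes. From 3 to 6 h of HA-H3.3, 3 were higher and 0 lower, against 15.9% and 7.47% of all genes. In HA-Macro ES cells 5 were higher and 3 lower at 12 h than in the 3 h library that stood apart, against 6.18% and 38%.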

How the data were processed

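Mapped intervals of 11 ChIP-Seq libraries were used, as deposited. Per the labels and methods, the authors used Bowtie 1.0 and mm9, permitted 1 mismatch, placed multi-mapping reads at 1 random site and lengthened each read downstream. In the files, intervals of 400 bp and of 150 bp differ in their share of copied sequence. The deposited files hold positions only, without strand, count or quality.

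Here, repeated intervals were counted once, midpoints were assigned to gene bodies and promoters (600 bp either side), and ratios were taken relative to the distinct intervals of chromosomes 1 to 19. A gene was called at a 1.5-fold ratio. Promoter ratios took 1 added midpoint. With 1 library per condition no test across samples was made, and 95% intervals are exact binomial and cover counting error only. Genes were named by rule: the 2 highest and 2 lowest anti-MacroH2A2 ratios per family, the 10 highest HA-H3.3 promoters, and a known-role list. Cyp2t4, Serpinb1b, Cyp2c68, Cyp2b13, Cyp2b9, Cyp3a41b, Cyp4a12a, Cyp2w1, Cyp21a1, Cyp26c1, Serpina3b and Serpinb9g were named after their values were seen. Members, lists and tests were chosen with earlier results of these data known. Uniquely placed densities, counts without genes under 70% unique words and counts without Ugt1a were added after the data had been seen. Alternatives are given in the closing section. Python 3.11.15, numpy 2.4.6, pandas 2.3.3, scipy 1.17.1, pysam 0.24.0 and numba 0.67.0 were used, and the calling was tested on simulated data.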

Additional observations from a re-analysis of the deposited data

Results flagged for a closer look

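In 2 of 149 gene bodies (1.34%), against 513 of 17107 protein-coding genes (3%), the HA-Macro level moved in opposite directions from 3 to 12 h of Dox in ES cells and in MEFs, with counting intervals that left out 0 on both sides. The difference between the cell types was not tested, since each time point has 1 library. Cyp2a5, the coumarin-oxidising P450 of liver, had a log2 ratio of 0.63 in ES cells and of -1.39 in MEFs. Only 36.7% of its 32-base words occur once in mm9, and uniquely placed intervals gave -0.08 and -1.63. Serpinb1b had 0.64 in ES cells and -0.33 in MEFs, and uniquely placed intervals gave 0.17 in ES cells. Both ES ratios rest on the 3 h library that stood apart in its chromosome Y share, and from 6 to 12 h the ES ratios were -0.10 (interval -0.63 to 0.42) for Cyp2a5 and -0.29 (-0.66 to 0.07) for Serpinb1b.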

How the results depend on the processing

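No paired analysis was possible because each condition has 1 library, and for the same reason no replicate could be left out. With uniquely placed intervals the HA-H3.3 promoter median of Cyp3 turned from -0.84 to 0.10. That of Cyp2 became 0.13 with overlapping intervals counted and without genes under 70% unique words, and that of Cyp4 -0.13 with the median body at a ratio of 1. With the median body at a ratio of 1 the anti-MacroH2A2 MEF over ES family medians became 0.22 in Cyp2, 0.28 in Cyp3, 0.22 in Cyp4 and 0.29 in Ugt1a, and that of Ugt1a in HA-Macro 0.13, all from below 0, and the Ugt2 median of 0.02 lay between -0.05 and -0.02 in 3 settings. The balance of higher against lower calls between cell types also turned at the median. Counts of genes past the fold moved beyond 1.5 times as follows. They are out of 149 bodies or 152 promoters unless stated. Brackets give the share of all genes at the same setting, except for promoters. A lower count can go with fewer genes tested or a lower share of all genes. For anti-MacroH2A2 MEF over ES, the 4 higher became 32 (8.88%) with the median body at a ratio of 1. They became 11 (2.49%) with libraries thinned to the smallest and 2 (0.536%) at a 2-fold threshold. Leaving the promoter out of the body gave 7 (2.29%). Uniquely placed intervals gave 8 of 127 (1.36%), and leaving out genes under 70% unique words gave 2 of 107 (1.23%). The 16 lower became 0 (9.01%) at the median, 0 (7.75%) at 2-fold and 9 of 108 (27.2%) with at least 50 midpoints. For HA-Macro 12 h MEF over ES, the 16 higher became 37 (15.8%) at the median, 1 (0.666%) at 2-fold and 9 of 108 (3.38%) with 50 midpoints. The 44 lower became 10 (4.43%) at the median and 11 (4.9%) at 2-fold. For ES 12 over 3 h, the 13 higher became 42 (18.5%) at the median and 2 (0.462%) at 2-fold. They became 5 of 108 (5.05%) with 50 midpoints and 4 (0.672%) with 6 h in place of 3 h. The 2 lower became 0 (24.5%) at the median, 1 (38%) with overlapping intervals counted, 4 (38.1%) thinned and 0 (16.1%) at 2-fold. They became 1 of 108 (38.3%) with 50 midpoints and 1 (2.05%) with 6 h. Leaving out the prefix-only genes gave 1 of 139 (38%), and uniquely placed intervals gave 4 of 127 (39.2%). For anti-MacroH2A2 ES over no Dox, the 35 lower became 17 (4.52%) at 2-fold and 16 of 127 (6.39%) with uniquely placed intervals. Without genes under 70% unique words they became 5 of 107 (3.61%). For MEF over no Dox, the 16 higher became 5 (2.85%) at 2-fold and 7 of 108 (8.45%) with 50 midpoints. For HA-H3.3 promoters, the 57 lower became 32 at 2-fold, 28 with 5 added midpoints and 31 of 109 without genes under 70% unique words. For HA-H3.3 bodies from 3 to 6 h, the 51 lower became 16 (2.02%) at 2-fold and 26 of 108 (5.87%) with 50 midpoints. Without genes under 70% unique words they became 29 of 107 (5.91%). The 3 higher became 0 (8.23%) at the median, 5 (16.3%) with overlapping intervals counted and 6 (16.5%) thinned. They became 0 (2.12%) at 2-fold and 5 (15.3%) with the promoter left out. For HA-Macro MEF 12 over 3 h, the 8 higher became 14 (4.65%) thinned and 0 (0.205%) at 2-fold. They became 4 of 108 (0.624%) with 50 midpoints and 4 of 127 (1.86%) with uniquely placed intervals. The 4 lower became 9 (5.68%) thinned, 1 (0.251%) at 2-fold and 1 of 108 (0.892%) with 50 midpoints. Uniquely placed intervals gave 2 of 127 (2.52%), and leaving out genes under 70% unique words gave 1 of 107 (2.3%). In all, 149 counts stayed within 1.5 times and 51 did not. Family medians moved by more than their counting error in 44 cases beside that of Cyp3, and by less in 222. Clusters numbered 21 at 100 kb, 15 at 200 kb and 13 at 500 kb. Libraries of 6280929 distinct intervals and up leave few midpoints on short genes.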

Other observations

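Other tandem families showed some of the same levels. The olfactory receptors (Olfr, 1106 genes with 96 tested bodies) had median HA-Macro 12 h densities of 0.77 in ES cells and 0.48 in MEFs, near those of Ugt2 at 0.73 and 0.45, and a median HA-H3.3 density at 6 h of 0.58. The keratin genes (Krt and Krtap, 97 genes with 49 tested) had 1.26 and 1.48 in HA-Macro, as Serpina had 0.92 and 1.23, and 1.79 and 1.54 in anti-MacroH2A2. Their HA-H3.3 median at 6 h was 0.83.

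Short motifs were searched on both strands in the 300 bases before each start, and a match is a description of letters only. TATAAA was present in 46 of the 152 (30.3%) and in 14.6% of all promoters, with 20 of 58 Cyp2, 5 of 10 Cyp3, 3 of 18 Cyp4, 1 of 9 Ugt1a, 1 of 9 Ugt2, 6 of 22 Serpina and 10 of 26 Serpinb genes among them. GTTAAT, part of the HNF1 site, was present in 25 (16.4%) against 7.16%, in 9 Cyp2, 0 Cyp3, 3 Cyp4, 5 Ugt1a, 1 Ugt2, 5 Serpina and 2 Serpinb genes. CCAAT was present in 67 (44.1%) against 38.7%, and TGACTCA in 7 (4.61%) against 4.46%. Ugt1a6a and Ugt1a6b share 1 start, so the 152 genes have 151 distinct starts.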
